A study of Mus musculus with 15 samples.

Results

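Mouse tubule-like cells grown by hand in Matrigel were compared with the same cells dispensed by an inkjet bioprinter, gene by gene. The comparison ran through the flat cultures (2D) that both were set against: for each gene the log2 fold change of printed cultures over 2D was subtracted from that of Matrigel over 2D. The 13841 genes whose base mean reached 10 in each table were compared, of 27179 genes in each table. The base mean is the mean of normalized read counts over the 6 libraries of a table.

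The cells are induced renal tubular epithelial cells (iRECs), a mouse line that is known to come from fibroblasts reprogrammed with kidney transcription factors, Emx2, Hnf4a and Pax8 among them. The labels name no further allele or agent for any group, and all were kept in renal epithelial growth medium (REGM) and harvested on day 7. The Matrigel group held 3 cultures dispensed manually into Matrigel, an extract rich in laminin and collagen IV, where the cells assembled on their own. The printed group held 3 cultures that a bioprinter placed in fibrin and collagen I, the main proteins of blood clots and of interstitial matrix, with their growth guided by the print. The 2D group held 3 manually seeded flat cultures. The deposited table for the printed cultures names only collagen. Within each group the replicates came from passages 35, 48 and 53 of 1 line, so they are not independent animals and the errors measure only the spread between these cultures. Gel, way of dispensing and geometry differ at once between the groups and cannot be told apart.

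Cells sense oxygen through prolyl hydroxylases (the Egln enzymes), which use oxygen to mark hypoxia-inducible factor (HIF) for destruction. When oxygen is short, HIF is known to switch on genes of glucose uptake, glycolysis, mitochondrial removal, collagen hydroxylation and vessel growth. The proximal tubule, the part of the nephron that iRECs are meant to resemble, normally burns fatty acids and takes up filtered solutes, and it tends to lose these traits in culture.

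The authors' deposited tables give 1 mean level and 1 fold change per gene, with no value per library. The direction in each culture and the depth of each library are therefore unknown here, and a difference cannot be repeated without a library. Each number after ± is a standard error, and a difference is called where its Benjamini-Hochberg adjusted p, from a two-sided normal test over all 13841 genes, was under 0.05. At the median standard error of 0.31, a difference had to reach 1.11 on the log2 scale, or 2.16-fold, to be called, and genes with smaller errors were called somewhat under that. A gene that is not called is not shown to be alike. Genes with the fewest reads have fold changes near 0 and small errors in the authors' deposited tables, as fold changes shrunken towards 0 do, so the differences tend to understate the gap for genes with few reads or a wide spread. The median difference over all genes was -0.008, which leaves no visible shift between the tables.

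Defining markers of tubule epithelium were present in both tables. Their base means in the authors' deposited tables ran from 289 (Krt8, a keratin of simple epithelia) to 61399 (Cdh16, the kidney cadherin) for Matrigel and from 433 to 64782 for the same genes in the printed table. Fibroblast markers were also present, with base means of 4996 and 6184 for vimentin (Vim) and 33.1 and 42 for Pdgfra, in the authors' deposited tables for Matrigel and printed cultures. None of the 11 epithelial and fibroblast markers checked was called between the cultures. The lowest unadjusted p values were 0.0177 for Krt8, higher in printed cultures, and 0.0181 for Epcam, an adhesion protein of epithelia, higher in Matrigel. The wider list of mesenchymal genes lay towards printed cultures. Of 18 compared, 1 was called (Fn1, described further on), and 14 lay below 0, with a median of -0.39 against -0.008 over all genes. An unadjusted p under 0.05 was reached by 5, all higher in printed cultures. Over all genes, 0.491% were called higher in printed cultures, 3.09% were higher there at that unadjusted level, and 7087 of 13841 lay below 0.

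Of the 13841 genes, 89 differed between Matrigel and printed cultures (0.643%). Higher in Matrigel were 21 genes (0.152%), and 68 were higher in printed cultures (0.491%). All 89 were at least 2-fold apart. The folds ran from 2.21 to 5.7 among the genes higher in Matrigel and from 2.13 to 13.9 among those higher in printed cultures. An unadjusted p under 0.05 was reached by 238 genes higher in Matrigel (1.72%) and by 428 higher in printed cultures (3.09%). The error used counts the variance of the shared 2D libraries in both tables. With that variance taken out, on the assumption that all groups vary alike, 457 genes were called.

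**Figure D1:**
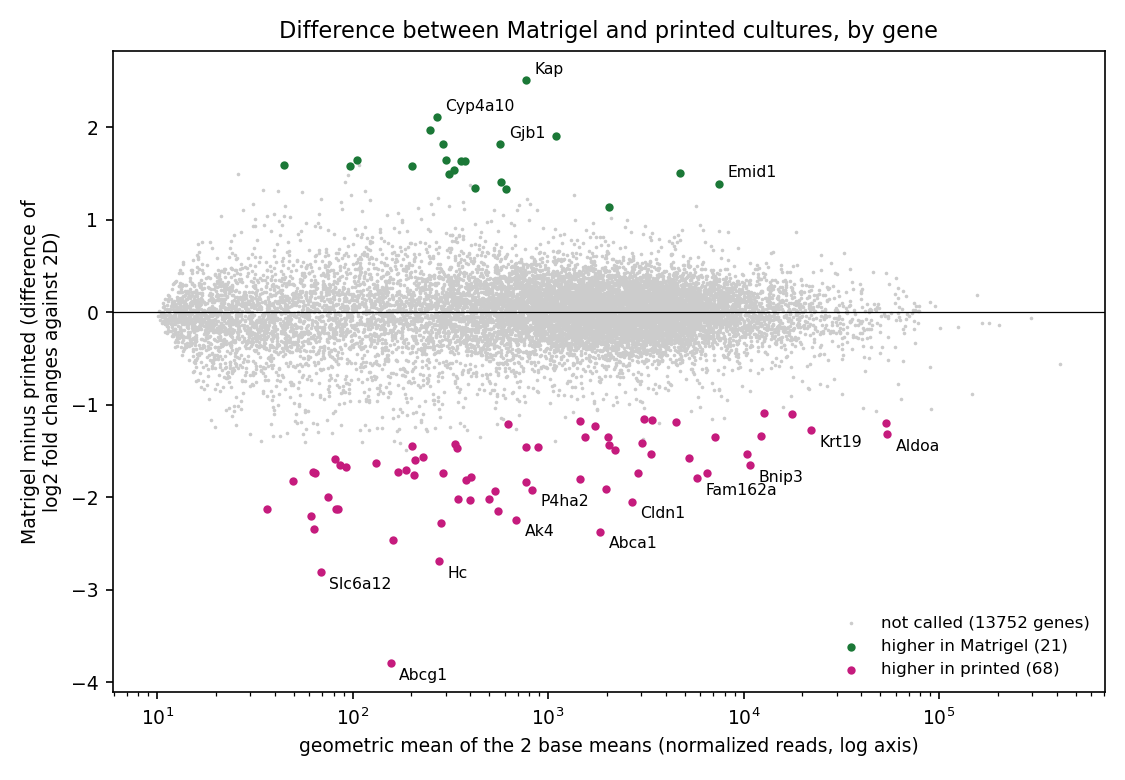
Difference between Matrigel and printed cultures for each gene (y axis, log2) against the geometric mean of its base means in both tables (x axis, normalized reads, log axis). Each point is a gene: 21 called genes lie above 0, 68 lie below, and the genes not called are in grey.

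The 2 sides differed in which culture had moved away from 2D. In the authors' deposited tables, an adjusted p under 0.05 against 2D was given to 924 of the genes compared in Matrigel (6.68%) and to 476 in printed cultures (3.44%). Of the 21 genes higher in Matrigel, 20 were called against 2D in the authors' deposited table for Matrigel only and 1, Anxa13, in both tables. Their median log2 fold change against 2D was 1.74 in Matrigel and 0.15 in printed cultures, so the median sat near the 2D level after printing. Single genes did not all do so: the printed values ran from -0.47 (Galnt18) to 1.28 (Anxa13) in the authors' deposited table. Of the 68 genes higher in printed cultures, 35 were called against 2D in the printed table only, 20 in the Matrigel table only, 7 in both, in opposite directions, and 6 in neither of the authors' deposited tables. Their median log2 fold change was 0.96 in printed cultures and -0.69 in Matrigel, so the median gap lay on both sides of the 2D level. Both comparisons share the 2D libraries, and both sets of genes were picked by the difference itself, so these counts and medians are a description.

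Genes of the hypoxia response and of glycolysis made up the largest group of called differences on any list. Of the 34 list members compared, 11 were higher in printed cultures and 0 in Matrigel, against 0.491% and 0.152% of all genes. The median difference over the list was -0.99, against -0.008 over all genes, and 33 of the 34 members lay below 0. An unadjusted p under 0.05 was reached by 26 members, all higher in printed cultures, against 3.09% of all genes. On the median, the members stood at 0.74 against 2D in printed cultures and at -0.27 in Matrigel. With the 2D variance taken out on the assumption given above, 24 of the 34 were called. Among the 34 members, by the authors' deposited tables, 17 had risen and 0 had fallen against 2D in printed cultures, while 0 had risen and 3 had fallen in Matrigel. Over all 13841 genes, 374 had risen and 102 had fallen in printed cultures, while 585 had risen and 339 had fallen in Matrigel.

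Egln3 had the largest difference on the list. This gene, a HIF prolyl hydroxylase that HIF itself induces, had a base mean of 227 in the Matrigel table and 702 in the printed table. Against 2D it stood at -0.95 ± 0.27 in Matrigel and 1.08 ± 0.30 after printing in the authors' deposited tables, both called, and the difference was -2.03 ± 0.40 (adjusted p = 0.000315). Its paralog Egln1 went the same way by -1.14 ± 0.33, with an adjusted p of 0.0843 that missed the threshold. Adm, the vasodilator peptide adrenomedullin, fell against 2D in Matrigel, to -1.49 ± 0.29, and had 0.53 ± 0.31 in printed cultures, not called, in the authors' deposited tables. The difference for Adm was -2.02 ± 0.42 (adjusted p = 0.000855).

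Among the mitochondrial members, Fam162a, a HIF target of the mitochondrial membrane, had the largest test statistic of the list. Its base mean was 3674 in the Matrigel table and 9038 in the printed table, and the difference was -1.79 ± 0.35 (adjusted p = 0.000315). Bnip3, a receptor for the removal of mitochondria, differed by -1.65 ± 0.40 (adjusted p = 0.00852), and its relative Bnip3l by -1.16 ± 0.35 (adjusted p = 0.103, not called). Pdk1, the kinase that closes the entry of pyruvate into mitochondria, differed by -1.53 ± 0.42 (adjusted p = 0.041). The call of Pdk1 was lost with no minimum base mean (adjusted p = 0.0559). The base means of Pdk1, with the 2D share taken out, imply a larger gap of -2.83. For these 4 genes the estimate in Matrigel lay below the 2D level, without being called there, and the estimate in printed cultures above it.

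The glycolytic enzymes followed in the order of the pathway. The phosphofructokinase subunits Pfkl and Pfkp, the rate-setting step, were higher in printed cultures by 2.9-fold and 2.13-fold, with differences of -1.54 ± 0.33 and -1.09 ± 0.28. Aldoa, which splits fructose bisphosphate, had base means of 40395 and 72988 in the Matrigel and printed tables and differed by -1.32 ± 0.32. Pgam1, the phosphoglycerate mutase, differed by -1.10 ± 0.30, and Ldha, which turns pyruvate into lactate, by -1.20 ± 0.32, with base means of 40714 and 71000.5. Adjusted p values of these 5 genes ran from 0.00161 for Pfkl to 0.0349 for Pgam1. The other enzymes of the line did not pass but lay on the same side: Pkm at -1.05 ± 0.29, Eno1 at -0.94 ± 0.27, Pgk1 at -1.06 ± 0.31, Gapdh at -0.89 ± 0.27 and Tpi1 at -1.04 ± 0.32, with adjusted p values from 0.0567 to 0.131. The glucose transporter Slc2a1 was at -1.03 ± 0.33 (adjusted p = 0.173). Ldha, Aldoa, Pgam1 and Gapdh have processed pseudogenes that can share reads, so their exact size is uncertain.

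Other HIF targets did not pass. Vegfa, the vessel growth factor, had -0.49 ± 0.28, the carbonic anhydrase Car9 -0.21 ± 0.44, the lactate exporter Slc16a3 -0.10 ± 0.45 and Ddit4 -0.34 ± 0.30, none of them called. Stc2 was the one member above 0, at 0.21 ± 0.30, and its 95% interval ran from -0.37 to 0.80. The list was written with earlier results of these data known. Genes off the list with a known link to hypoxia were picked after their values were seen: Pgf, placental growth factor, at -1.91 ± 0.27, Ak4, a mitochondrial adenylate kinase, at -2.24 ± 0.40, Ero1l, an oxidase of the endoplasmic reticulum, at -1.57 ± 0.35, Mxi1 at -1.43 ± 0.38, and Stc1 at -1.76 ± 0.45, all called. For Stc1 the gap that the base means imply was larger, -3.23.

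**Figure D2:**
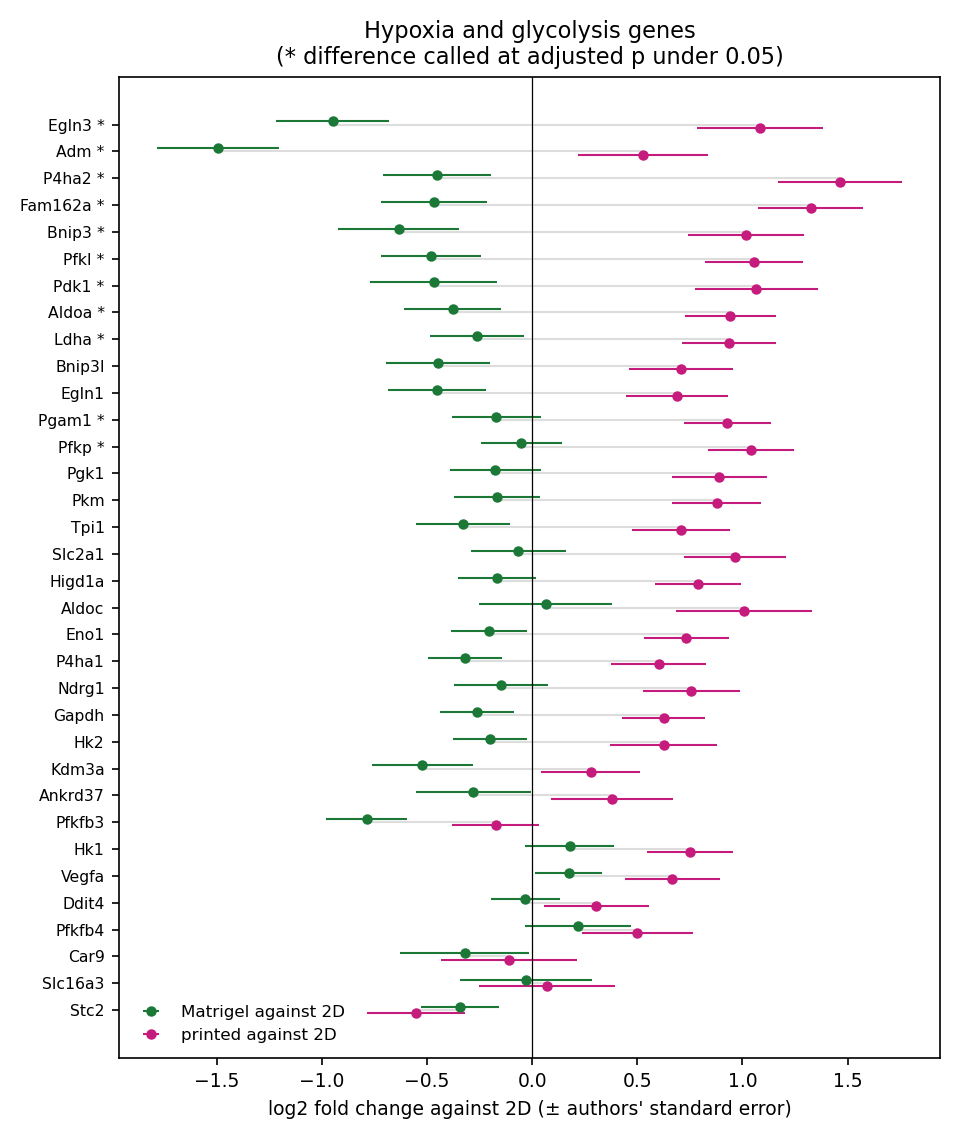
Log2 fold change against 2D (x axis) of the 34 hypoxia and glycolysis genes in Matrigel (green) and printed cultures (pink), with the authors' standard errors as bars and genes ordered by the difference. The median lies at -0.27 in Matrigel and 0.74 in printed cultures, and an asterisk marks the 11 called differences.

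Promoters of these genes were read for the core hypoxia element, ACGTG, to show what the members share in sequence. The windows are 300 bases long, from 250 before to 50 after each RefSeq start in GRCm38.p6, and a gene counts once if any of its windows holds a match on either strand. ACGTG also lies within CACGTG, the E-box that other factors bind, and overlapping matches were counted once. The element was found in 23 of 32 list genes with a promoter (71.9%), in 7 of the 11 called (63.6%) and in 3083 of 10648 genes in all (29.0%). Among genes higher in printed cultures that are not on the hypoxia list it was found in 13 of 45 (28.9%), and among those higher in Matrigel in 2 of 14 (14.3%). Shown here, 5′ to 3′ with matches in capitals, are the promoter of the gene with the largest statistic and the 2 called promoters with the most matches. They are Fam162a at chr16:36071512-36071811 on the minus strand with 1 match, P4ha2, a collagen hydroxylase described further on, at chr11:54100674-54100973 on the plus strand with 2, and Ldha at chr7:46845554-46845853 on the plus strand with 3.
Fam162a: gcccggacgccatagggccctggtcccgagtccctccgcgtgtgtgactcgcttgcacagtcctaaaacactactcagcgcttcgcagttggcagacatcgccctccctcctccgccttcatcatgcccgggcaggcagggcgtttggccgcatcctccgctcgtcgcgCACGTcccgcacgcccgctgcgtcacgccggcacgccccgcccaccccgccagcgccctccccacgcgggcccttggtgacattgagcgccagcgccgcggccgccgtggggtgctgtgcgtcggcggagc
P4ha2: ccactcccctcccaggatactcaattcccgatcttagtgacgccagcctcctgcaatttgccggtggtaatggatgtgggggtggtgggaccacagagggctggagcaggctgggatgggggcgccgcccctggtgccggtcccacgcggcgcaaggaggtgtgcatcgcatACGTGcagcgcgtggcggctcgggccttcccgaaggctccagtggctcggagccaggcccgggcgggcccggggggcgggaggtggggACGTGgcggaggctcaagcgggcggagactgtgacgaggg
Ldha: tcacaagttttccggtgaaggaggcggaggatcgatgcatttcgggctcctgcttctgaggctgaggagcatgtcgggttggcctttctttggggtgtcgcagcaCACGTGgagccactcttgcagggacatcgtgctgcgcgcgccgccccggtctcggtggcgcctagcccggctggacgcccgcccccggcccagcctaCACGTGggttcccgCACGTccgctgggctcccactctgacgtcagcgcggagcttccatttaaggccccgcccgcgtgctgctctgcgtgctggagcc
A run of 6 capitals holds the element on both strands. The 3 matches of Ldha lie before the start, and a further Ldha start in RefSeq had 0. The windows of Adm, Pfkl, Pfkp and Pdk1 held none, which says only that these letters are not in those windows. A match is a description and not a bound site. The list was made of HIF targets and glycolysis genes, so its share of matches does not bear on the difference between the cultures.

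The same windows were searched for 4 other elements. The AP-1 element TGANTCA was in 9 of 56 genes higher in printed cultures (16.1%), in 0 of 14 higher in Matrigel and in 675 of 10648 in all (6.34%). The sterol element TCACNCCAC was in 0 of the 56 and 0 of the 14 against 1.47% of all, the cAMP element TGACGTCA in 1 (1.79%) and 0 against 3.63%, and the CArG box in 2 (3.57%) and 0 against 1.52%.

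Enzymes that modify collagen were higher in printed cultures for 3 of 17 members compared, with 0 higher in Matrigel, against 0.491% and 0.152% of all genes. P4ha2, a subunit of the prolyl hydroxylase that lets collagen fold, had a base mean of 390.4 in the Matrigel table and 1748 in the printed table. Its difference was -1.92 ± 0.39 (adjusted p = 0.000513), and with the 2D share taken out of the base means the gap was larger, -4.36 on the log2 scale. Plod1 and Plod2, the lysyl hydroxylases that prepare collagen for cross-linking, differed by -1.22 ± 0.30 and -1.48 ± 0.37, with adjusted p values of 0.00971 and 0.0164. P4ha2 is on the hypoxia list as well, and P4ha2, Plod1 and Plod2 are known HIF targets. The median over the 17 genes was -0.13, against -0.008 over all genes.

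The matrix genes that differed did so through a fall in Matrigel. Fn1, fibronectin, the glycoprotein that cells lay down on interstitial matrix, lay at -1.97 ± 0.21 against 2D in Matrigel and -0.23 ± 0.20 in printed cultures in the authors' deposited tables. Only the Matrigel value was called there, and the difference was -1.74 ± 0.29 (adjusted p = 3.01e-06). Col12a1, a collagen that decorates collagen I fibrils, had base means of 63.3 and 113 and differed by -2.13 ± 0.44. These were the 2 called of 19 interstitial matrix genes, and both were higher in printed cultures, as were 0.491% of all genes. Col1a1, the chain of the collagen I that the printed cells were given as protein, had -0.0071 ± 0.45 and base means of 193 and 196.

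Basement membrane genes, whose products form Matrigel itself, had 0 of 22 members called, 1 higher in Matrigel and 2 higher in printed cultures at an unadjusted p under 0.05. The highest difference was that of Nid2, a linker of laminin and collagen IV, at 0.91 ± 0.39. Of 22 integrins and other matrix receptors 0 were called, with 2 higher in Matrigel and 1 in printed cultures at an unadjusted p under 0.05. Among 21 proteases and their inhibitors 0 were called, with 4 higher in printed cultures at that level. Adam8 was the furthest of these at -1.24 ± 0.41. Over all genes, 1.72% were higher in Matrigel and 3.09% in printed cultures at that level.

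Claudin 1 (Cldn1), a sealing protein of tight junctions, was the 1 called gene of 46 junction and polarity genes, where 0.643% of all genes were called. It had a base mean of 2019 in the Matrigel table and 3554 in the printed table, and a log2 fold change of -1.89 ± 0.24 against 0.15 ± 0.22 in the authors' deposited tables. The difference of -2.05 ± 0.32 (adjusted p = 4.55e-07) was thus a fall in Matrigel, while the printed value did not pass against 2D. Cldn1 was also below 2D in gels of fibrin or collagen I cast by hand, with values given further on. E-cadherin (Cdh1) at 0.46 ± 0.25, Epcam at 0.63 ± 0.27 and claudin 7 (Cldn7) at 0.58 ± 0.27 lay on the other side and were not called.

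Keratins, cornified envelope genes and mucins had 2 of 18 members higher in printed cultures and 0 in Matrigel, with a median of -0.83 and 10 members at an unadjusted p under 0.05, all 10 higher in printed cultures. Over all genes 0.491% were called higher in printed cultures, and 3.09% were higher there at an unadjusted p under 0.05. Krt19, a keratin of ducts and of injured tubules, had base means of 16121 and 30358. It rose against 2D by 1.34 ± 0.20 in printed cultures and had 0.07 ± 0.19 in Matrigel in the authors' deposited tables, and the difference was -1.27 ± 0.28 (adjusted p = 0.00163). Sprr1b, a protein of the cornified envelope, differed by -2.13 ± 0.43 (adjusted p = 0.000513) from low base means of 13 and 102. Sprr genes are near copies of each other, so reads may be split between them. Msln at -1.49 ± 0.42 and Muc4 at -1.42 ± 0.41 just missed the threshold, with adjusted p values of 0.0547 and 0.075. Scel, at 0.72 ± 0.44, and Sprr2h, at 0.46 ± 0.41, lay on the Matrigel side and were not called.

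Heat shock chaperones had 2 of 20 members higher in printed cultures, 0 in Matrigel, and 19 of the 20 below 0, with a median of -0.34. Over all genes, 0.491% were higher in printed cultures and 7087 of 13841 lay below 0. Cryab, a small chaperone of the lens and of stressed cells, differed by -1.34 ± 0.32 (adjusted p = 0.00852) and Hspa4l, a co-chaperone of Hsp70, by -1.15 ± 0.29 (adjusted p = 0.0181). The inducible Hsp70 genes Hspa1a and Hspa1b were at -0.48 ± 0.39 and -0.73 ± 0.38, not called.

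A pump for the export of cholesterol had the largest fitted difference of all genes. This gene, Abcg1, a pump that loads cholesterol onto lipoprotein particles, had a base mean of 38.4 in the Matrigel table and 636 in the printed table. Against 2D its log2 fold change was 0.0076 ± 0.32 in Matrigel and 3.80 ± 0.26 in printed cultures in the authors' deposited tables, and the difference of -3.79 ± 0.41, or 13.9-fold, had an adjusted p of 4.15e-16. With the 2D share taken out of the base means the gap of Abcg1 was -5.28. By that measure Slc6a12, a betaine transporter, was further apart, at -5.71, but its implied level in Matrigel was only 7.9 normalized reads. These implied gaps have no standard error. In RefSeq Abcg1 lies at chr17:31057694-31117984. It is named after its values were seen, since its base mean in Matrigel is under 100. Abca1 (chr4:53030789-53159988), the pump that works before Abcg1, fell against 2D in Matrigel, to -1.57 ± 0.20, and rose in printed cultures, to 0.80 ± 0.21, in the authors' deposited tables. The difference of Abca1 was -2.37 ± 0.29 (adjusted p = 3.59e-12). Synthesis of cholesterol showed no such gap: of 25 genes 0 were called and 0 reached an unadjusted p under 0.05, with differences from -0.41 to 0.43.

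Complement C5 (Hc, chr2:34983329-35068506), the parent of the lytic complex, had the largest difference once both base means had to reach 100. Its base mean was 152 in the Matrigel table and 504 in the printed table. The authors' deposited tables gave -1.94 ± 0.28 against 2D in Matrigel and 0.75 ± 0.32 in printed cultures, and the difference was -2.69 ± 0.43 (adjusted p = 4.55e-07). It was the 1 called gene of 19 complement and acute phase genes, whose median was 0.12. Flrt3, a guidance and adhesion protein of the cell surface, differed by -2.28 ± 0.35, having fallen in Matrigel and risen in printed cultures against 2D. Prss23, a secreted serine protease, differed by -1.94 ± 0.35, and Wnt7a, a secreted WNT ligand and the 1 called of 22 WNT genes, by -1.73 ± 0.41. The actin-linked LIM proteins Fhl1 and Pdlim1, 2 of 26 actin genes, differed by -1.35 ± 0.29 and -1.57 ± 0.39. Their falls in Matrigel were called in the authors' deposited table. Beside these counts, 0.643% of all genes were called, 0.152% higher in Matrigel and 0.491% higher in printed cultures.

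Markers of macrophages were among the genes higher in printed cultures. Cd68, a glycoprotein of lysosomes, had base means of 327 and 944 and differed by -2.15 ± 0.32 (adjusted p = 1.04e-07). Csf1r, the receptor for the growth factor CSF1, had base means of 346 and 722 and differed by -2.02 ± 0.31 (adjusted p = 3.19e-07). These 2 were the immune markers compared of 14. The other 12 summed to base means of 27.9 in the Matrigel table and 21.9 in the printed table, and the defining ones were at or near 0: Ptprc, the pan-leukocyte marker, at 1.44 and 1.33, Adgre1, the F4/80 antigen, at 0.6 and 0.585, and Cd3e at 0 in both. In such bulk RNA, fewer cells of a type and less RNA per cell cannot be told apart. Endothelial, podocyte and smooth muscle markers had 0 called of 6 compared each. At an unadjusted p under 0.05 there were 2, 0 and 0 members, the 2 endothelial ones higher in printed cultures. Of all genes, 0.491% were called higher in printed cultures, and 3.09% were higher there at that unadjusted level.

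On the Matrigel side, the 12 leading genes included transporters, enzymes for drugs and fatty acids, and contact proteins. Kap, the androgen-regulated protein that marks proximal tubule, led. Its base mean was 1810.2 in the Matrigel table and 332 in the printed table. It rose against 2D in Matrigel by 3.02 ± 0.26 and had 0.51 ± 0.31 in printed cultures, not called, in the authors' deposited tables. The difference was 2.51 ± 0.41, or 5.7-fold (adjusted p = 8.4e-07). Kap lies at chr6:133849855-133853667.

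Kap and Acsm2, a mitochondrial ligase for medium-chain fatty acids, were the called genes of 27 proximal tubule genes, 2 higher in Matrigel and 0 in printed cultures, with a list median of 0.24 and 18 of 27 above 0. Over all genes 0.152% were called higher in Matrigel and 6754 of 13841 lay above 0. Acsm2 differed by 1.33 ± 0.34 (adjusted p = 0.0214). Tmem27, an amino acid transport partner of the brush border, was at 1.22 ± 0.34 (adjusted p = 0.0547). The endocytic receptors Lrp2 (megalin) and Cubn (cubilin) were at 0.44 ± 0.26 and 0.56 ± 0.34 and the peptidase Mme at -0.99 ± 0.44, none called. The called gain in Matrigel thus rested on 2 of the 27 tubule genes.

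Enzymes for drugs and fatty acids came next. Cyp4a10, a fatty acid hydroxylase of tubule and liver, had base means of 477 and 153 and differed by 2.11 ± 0.41 (adjusted p = 0.000273). Cyp4a31 (chr4:115563627-115579015) lies beside Cyp4a10 (chr4:115518287-115533649), is a near copy of it and differed by 1.82 ± 0.39. Reads of these 2 may have been split, so they are not independent. Ces2b, a carboxylesterase with close copies in the same family, differed by 1.96 ± 0.39. Papss2, which makes the sulfate donor for conjugation, differed by 1.65 ± 0.43 (adjusted p = 0.0263), and its call was lost when the shrinkage factor of each table was applied (adjusted p = 0.0560). Cyp4a10 and Papss2 were the 2 genes higher in Matrigel of 26 drug-metabolizing and vitamin D genes, against 0.152% of all genes. On the same list 1 gene, Aldh1a3, which makes retinoic acid, was higher in printed cultures, with a difference of -2.00 ± 0.43. The vitamin D receptor Vdr at 0.89 ± 0.32 and Cyp24a1 at 1.05 ± 0.42 were not called.

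Gstm2, a glutathione transferase with close copies, was the 1 called gene of 30 NRF2 and glutathione genes, against 0.152% of all genes called higher in Matrigel. It differed by 1.41 ± 0.38 (adjusted p = 0.0377). Its call was lost with no minimum base mean (adjusted p = 0.0513) and with the shrinkage factors (adjusted p = 0.0745).

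Transporters among the leading genes were Slc16a6 and Slc2a2. Slc2a2, the GLUT2 transporter by which tubule and liver cells release glucose, had base means of 304 and 133 and differed by 1.58 ± 0.41 (adjusted p = 0.023). Slc16a6, a monocarboxylate transporter, had base means of 579.7 and 245 and differed by 1.64 ± 0.39 (adjusted p = 0.00829). Pipox, a peroxisomal oxidase of sarcosine and pipecolic acid, differed by 1.54 ± 0.41, and Sardh, the mitochondrial sarcosine dehydrogenase, picked after its value was seen, by 1.14 ± 0.30. With the shrinkage factors the adjusted p of Pipox was 0.0585, above the threshold.

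The contact genes were Gjb1 and Pcdh10, and Anxa13 and Galnt18 are given beside them. Gjb1, the gap junction protein connexin 32, had base means of 1021 and 318 and differed by 1.82 ± 0.36 (adjusted p = 0.000351). Anxa13, an annexin of polarized epithelia, rose against 2D in both cultures, by 2.92 ± 0.28 and 1.28 ± 0.32, in the authors' deposited tables. Its difference of 1.64 ± 0.42 (adjusted p = 0.0215) lost the call with the shrinkage factors (adjusted p = 0.0536). Pcdh10, a protocadherin, differed by 1.91 ± 0.37 in the fit, but its base means were close, 1215 and 998, and correspond to a difference of 0.37 with the 2D share taken out. Galnt18, which starts O-linked sugar chains, differed by 1.64 ± 0.33.

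For 10 of the 45 genes named by rule, the log2 ratio of the levels that the base means imply, with the 2D share taken out, stood for a fold over 1.5 times from the fitted one. For 9 of the 10 it was larger, with the value already given for P4ha2, -3.69 for Hc, -2.96 for Ak4, -2.87 for Egln3, -2.81 for Adm, -2.91 for Col12a1, -4.12 for Sprr1b, -3.55 for Aldh1a3 and 3.13 for Kap. The exception was Pcdh10, and none changed sign.

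The hand-cast gels of the materials that the printed cultures held are set beside these genes as values only, since all share the 2D libraries. The 68 genes higher in printed cultures had median log2 fold changes against 2D of -0.47 in fibrin and -0.59 in collagen I, on the side of Matrigel (-0.69) and not of printed cultures (0.96). For the hypoxia list the medians were -0.46 in fibrin and -0.70 in collagen I. P4ha2 stood at -1.78 ± 0.29 in fibrin and -3.94 ± 0.36 in collagen I in the authors' deposited tables, below its -0.45 ± 0.26 in Matrigel, and at 1.46 ± 0.30 in printed cultures. Some genes that fell in Matrigel were also low in fibrin and collagen I in the authors' deposited tables. Cldn1 stood at -1.33 ± 0.28 and -1.99 ± 0.21, Col12a1 at -1.39 ± 0.34 and -1.77 ± 0.37, and Hc at -2.66 ± 0.32 and -1.98 ± 0.34. Fn1 had -0.65 ± 0.27 in fibrin, not called, and -1.73 ± 0.26 in collagen I. The receptor gene Il1rl1, which also fell in Matrigel, had 0.11 ± 0.40 and 0.08 ± 0.42. The 21 genes higher in Matrigel had medians of 1.11 in fibrin and 0.75 in collagen I, between printed cultures (0.15) and Matrigel (1.74). Kap reached 2.86 ± 0.27 in collagen I, close to its value in Matrigel, whereas Cyp4a10 had 0.25 ± 0.31 in fibrin and -0.20 ± 0.37 in collagen I in the authors' deposited tables, near 2D.

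**Figure D3:**
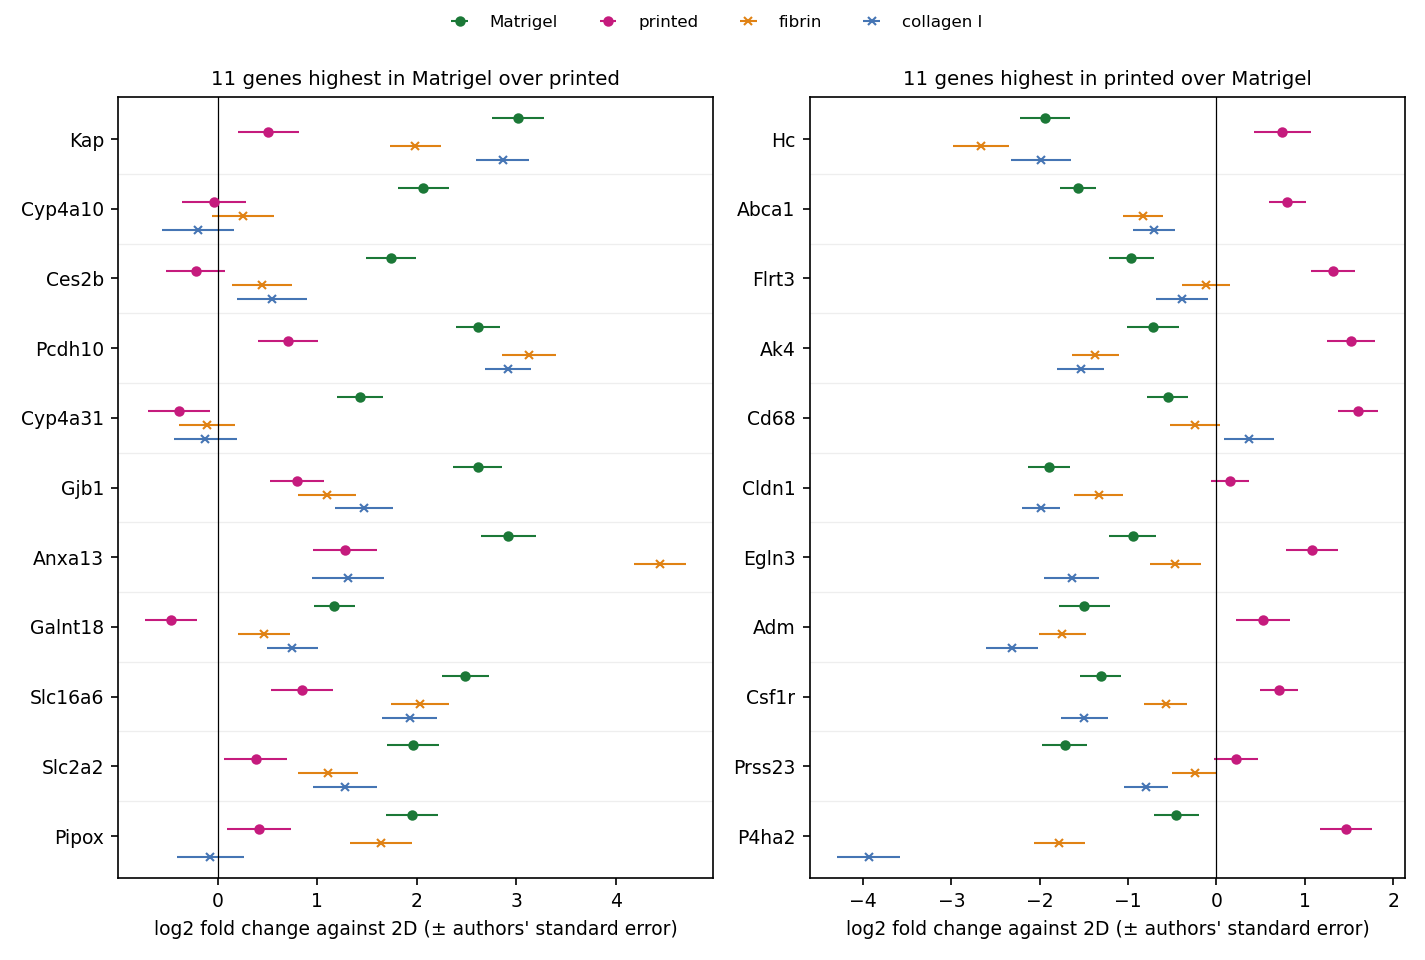
Log2 fold change against 2D (x axis, bars are the authors' standard errors) of the 11 genes highest in Matrigel over printed cultures (left) and the 11 highest in printed cultures over Matrigel (right), in Matrigel, printed, fibrin and collagen I cultures, among called genes whose base means both reached 100. On the right all 11 printed values lie above 0 and all 11 Matrigel values below it; on the left the Matrigel values run from 1.17 (Galnt18) to 3.02 (Kap).

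The replication and mitosis lists held no called gene. Of 32 genes of DNA replication 0 were called and 0 had an unadjusted p under 0.05, with differences from -0.33 to 0.20 and a median of -0.0018. The 30 mitosis genes gave 0 and 0 as well, from -0.32 to 0.26. Mitochondrial respiration had 0 of 33 called and 1 at an unadjusted p under 0.05, higher in Matrigel. The list median was 0.20, and 26 of 33 lay above 0, against 6754 of 13841 over all genes. Ndufb8, a subunit of complex I, was the furthest at 0.63 ± 0.30 (adjusted p = 0.898). Fatty acid oxidation genes had 0 of 26 called and 1 at that level, higher in Matrigel. Stress genes of the amino acid and unfolded protein responses had 0 of 32 and 1, also higher in Matrigel. YAP/TAZ targets had 0 of 21 called and 3 at that level, all 3 higher in printed cultures. Their list median was -0.25, and 18 of 21 lay below 0, against 7087 of 13841 over all genes. Gadd45b came closest at -1.08 ± 0.32 (adjusted p = 0.0844). BMP genes had 0 of 19 called and 3 at that level, 2 higher in Matrigel and 1 in printed cultures, with Id1 at 1.11 ± 0.33 (adjusted p = 0.101). At that level, 1.72% of all genes were higher in Matrigel and 3.09% in printed cultures. In all, 15 of the 40 lists had a called member and 25 had none, and 57 of the 89 called genes were on no list.

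**Figure D4:**
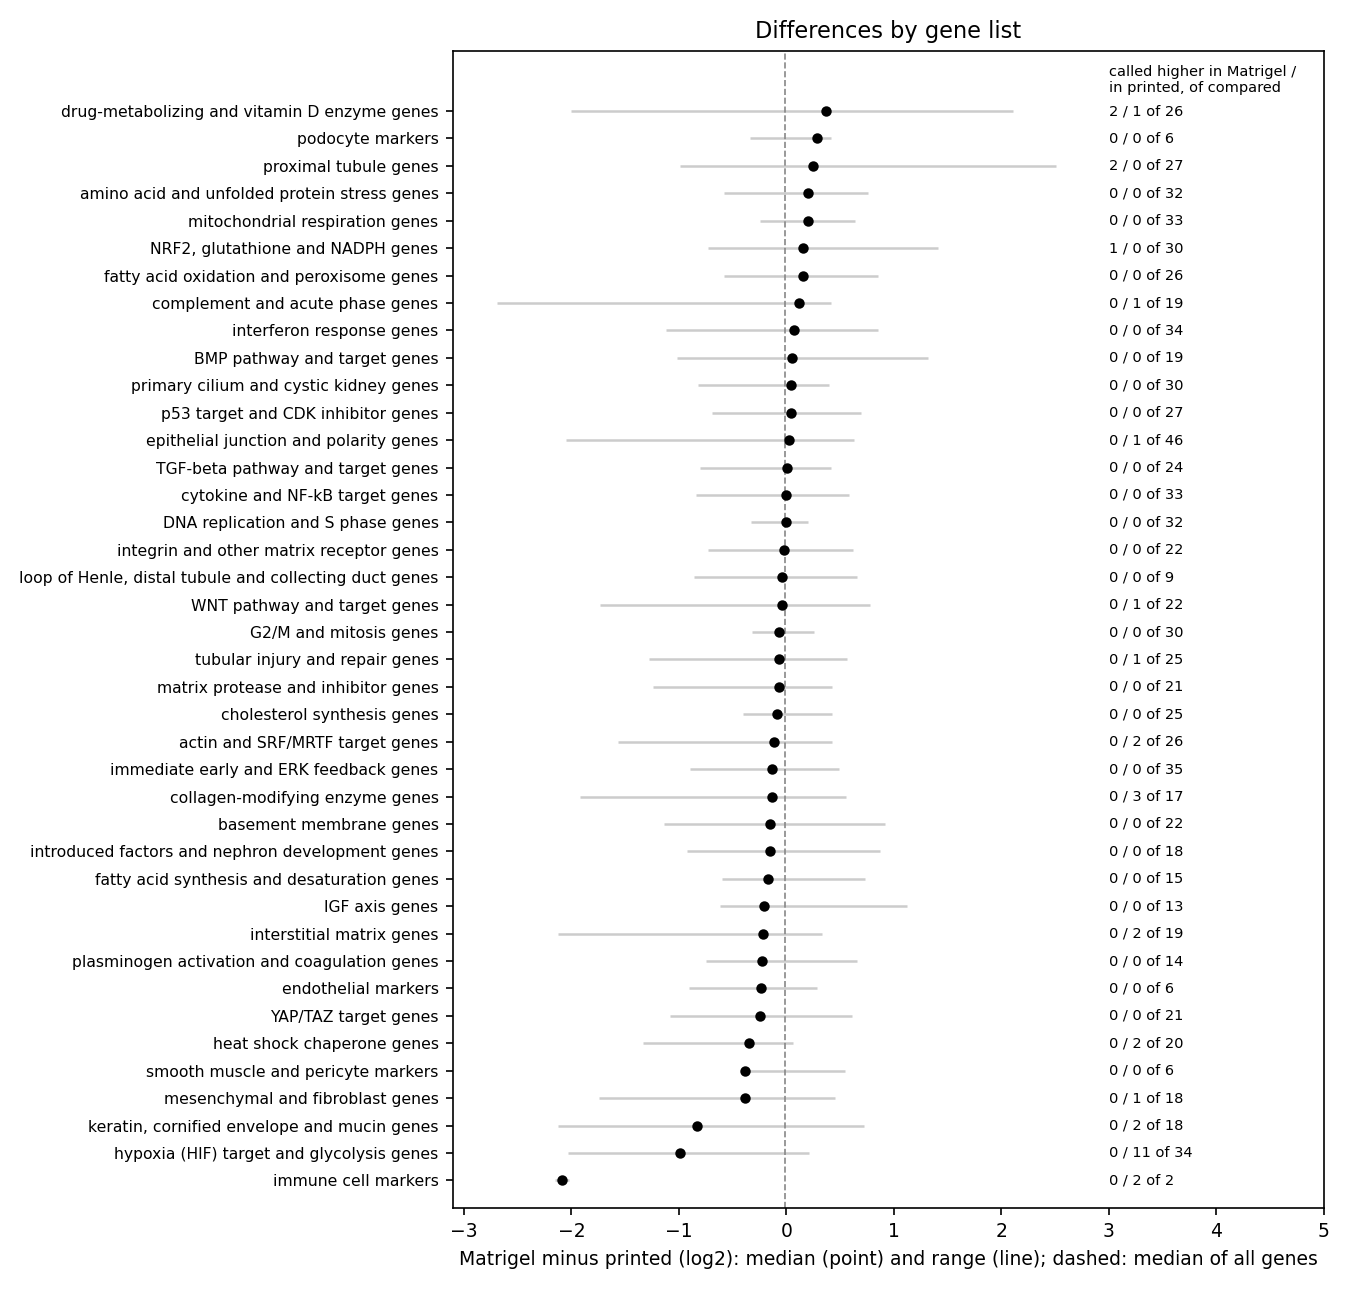
Difference between Matrigel and printed cultures (x axis, log2) for 40 gene lists, with the median of the compared members as a point, their range as a line and the median of all genes dashed. Counts at the right are members called higher in Matrigel and in printed cultures of those compared, from 11 of 34 hypoxia genes to 0 of 32 replication genes.

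Transcription factors used to make such cells were not called. Emx2 was at -0.15 ± 0.26, Hnf4a at -0.27 ± 0.25 and Pax8 at -0.37 ± 0.25. The 95% intervals ran from -0.66 to 0.35 for Emx2 and from -0.86 to 0.11 for Pax8. Their base means ran from 10945 (Hnf4a) to 20755 (Pax8) in the Matrigel table. These counts cannot tell the cells' own transcripts from introduced ones.

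Features that can bias read counts are given as a description. All 89 were protein coding, as were 12682 of the 13841 genes compared. Median GC content of the transcripts was 47.6% for genes higher in Matrigel, 48.4% for those higher in printed cultures and 50% over all genes with a value. Median transcript length was 2921, 3453.5 and 3372 bases. The 11273 genes whose base means both reached 100 held 69 of the 89 calls, at a median standard error of 0.29. The other 2568 genes held 20, at 0.44.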

How the data were processed

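RNA of 15 libraries from 5 culture groups was sequenced by the authors. Only the tables for Matrigel and printed cultures, each 3 libraries against the same 3 in 2D, enter the difference, and the fibrin and collagen I tables are given beside it. The authors list, with no role or order, STAR 2.6.0b-1, FastQC 0.72, Trim Galore 0.4.3, DESeq2 1.22.1, featureCounts 1.6.3 and the build mm10, per the submitters' processing notes. Strand, gene annotation and any passage term: not given in the sources used here. Each table's base mean, so named per the file headers, is a signal deposited by the authors, by the definition of the listed count model a mean of counts divided by size factors. Fold changes and standard errors are the authors' log2 values, their deposited Wald statistic is a score (log2 fold change over standard error), and the p-value and adjusted p-value beside it are the authors' own. The tables hold 0 columns of values per library.

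From these, the difference of both log2 fold changes, its standard error (squares of both errors summed, then the root), a normal two-sided p and its Benjamini-Hochberg adjustment over 13841 genes were computed (Python 3.11.15, scipy 1.17.1, pandas 2.3.3) and tested on simulated data. The 2D variance enters this error from both tables. Levels were implied from base means, with the 2D level as the median over the 4 tables. Named are the 12 genes highest on each side with base means of 100 or more, up to 5 called members of each of 40 lists, called markers of other cell types, and introduced factors. Some items are not reported here. Other genes are named after their values were seen, among them all list members that were not called. Members and lists were chosen with earlier results of these data known. Coordinates and promoters are RefSeq's, GRCm38.p6, and 97.6% of the genes compared matched. Alternatives were another minimum base mean, the authors' filter, an empirical null, centring, a shrinkage factor for each table and implied levels. In a further alternative the 2D variance was taken out of the error, with equal variance in all groups assumed.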

Additional observations from a re-analysis of the deposited data

Results flagged for a closer look

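For 7 genes the authors' deposited tables called changes against 2D in opposite directions, a fall in Matrigel and a rise in printed cultures, and the difference itself was called. The differences were -2.46 for Mgarp, a mitochondrial protein, -2.37 for Abca1, -2.28 for Flrt3, -2.03 for Egln3, -2.02 for Csf1r, -1.91 for Pgf and -1.80 for Ndrg4, on the log2 scale. Their adjusted p values ran from 3.59e-12 for Abca1 to 0.000315 for Egln3. Both tables use the same 2D libraries, so the fold changes of a gene in them are not independent. An error in those libraries moves both fold changes the same way. From the base means, with the 2D share taken out, the gap of Mgarp was -4.15. Mgarp and Ndrg4 were named after their values were seen.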

How the results depend on the processing

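The count of 89 genes was 69 where both base means had to reach 100, 82 with no minimum, 89 with the authors' filter, 88 after centring and 83 with a shrinkage factor for each table (its fold changes and errors multiplied by its median ratio of implied to deposited fold change). Taking out the 2D variance, on the assumption that all groups vary alike, gave 457 genes (148 higher in Matrigel and 309 in printed cultures). Of these, 231 were at least 2-fold apart. An empirical null, with a spread of 0.849 for the statistic, gave 203 genes (62 and 141), of which 164 were at least 2-fold apart. The latter 2 alternatives use a smaller error by construction, and both kept all 89 genes. Hypoxia genes higher in printed cultures were then 24 and 21 of 34 in place of 11. The share of calls higher in Matrigel was 23.6%, and 32.4%, 30.5% and 18.1% with the 2D variance taken out, the empirical null and the shrinkage factors. Under these alternatives and the implied levels no named gene reversed. By the implied levels, though, 17 of the 45 genes named by rule moved by at least the standard error of their difference, and 28 did not. Calls lost among all 89 were those of Gstm2, Serpinb9b, Pdk1, Arsg, Rragd, Rundc3b and Clybl with no minimum, Clybl after centring, and Anxa13, Papss2, Trib2, Pipox, Gstm2, Arsg and Rragd with the shrinkage factors. No paired analysis was possible because the tables hold no values per library, and for the same reason leaving out each replicate was not run. Depth per library is unknown, so no interval for counting error is given.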

Other observations

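Metal, metabolic and signalling genes that belong to none of the lists were also higher in printed cultures, and these were picked after their values were seen. Mt2, a metallothionein, differed by -1.42 ± 0.34 (adjusted p = 0.00958). Slc6a12, a transporter of the osmolyte betaine, had base means of 20.8 and 229 and differed by -2.81 ± 0.44 (adjusted p = 3.82e-07). Abcb1b, a drug efflux pump, differed by -1.83 ± 0.39, Il1rl1, the receptor for interleukin 33, by -1.74 ± 0.41, and Il13ra1, a receptor chain for interleukin 13, by -1.46 ± 0.30. Lepr, the leptin receptor, differed by -1.73 ± 0.38, Flt4, a receptor for vessel growth factors, by -1.45 ± 0.32, and Ccng2, a cyclin that slows the cell cycle, by -1.17 ± 0.29. With the 2D share taken out of the base means the gap was larger by over 1.5 times for Slc6a12 (-5.71), Il1rl1 (-3.43) and Abcb1b (-2.63). That of Slc6a12 rests on an implied level in Matrigel of only 7.9 normalized reads.

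Base means set directly beside each other show genes that the fitted difference does not call. Both tables hold the same 2D libraries, and 52 genes with base means of 100 or more differed at least 2-fold in base mean between them. The printed table had the higher value for 22 called genes and 18 not called, and the Matrigel table for 11 called and 1 not called. Havcr1, the tubular injury marker KIM-1, had base means of 1460.4 in the Matrigel table and 5706 in the printed table, 3.91 times apart, yet the authors' deposited tables gave -0.27 ± 0.24 and 0.47 ± 0.27 and the difference was -0.74 ± 0.36 (adjusted p = 0.971). Fa2h, a fatty acid hydroxylase, had 115 and 379 with a difference of -1.24 ± 0.42 (adjusted p = 0.245). Vcam1, an adhesion molecule, was the 1 gene on the other side, with 1643 and 674 and a difference of 0.33 ± 0.40 (adjusted p = 1). These genes were named after their values were seen. Which libraries held the reads cannot be read from the tables, and the cause of the gap was not tested.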
